A study of Mus musculus with 13 samples.

Results

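The late step of reprogramming was examined as the difference in CpG methylation between finished male induced pluripotent stem cells (iPSCs) and male cells sorted on SSEA1, a carbohydrate surface antigen carried by mouse pluripotent cells. The comparison set 3 male iPSC libraries against 1 SSEA1 positive and 1 SSEA1 negative library, 5 of the 13 libraries of the study, chosen by their labels. All were made by reduced representation bisulfite sequencing (RRBS), in which a restriction enzyme cuts out CpG-rich fragments whose methylated and unmethylated cytosines are then read. Male mouse embryonic fibroblasts (MEFs, 2 libraries), the starting cell type, and female iPSCs labelled XO (4 libraries) or XaXa (2 libraries), for a single X or a pair of active X chromosomes, served as further reference points. The iPSCs were depleted of feeder cells before DNA was isolated, per the labels. The sources used here do not give the strain, the reprogramming factors, the day of the sort or the age of the embryos. Each sorted gate is a single library, and nothing says that the iPSC libraries came from separate cultures, so a p-value reflects the spread among these libraries, which may be technical.

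DNA methylation of CpGs marks promoters and enhancers that a differentiated cell keeps silent, and methylation over gene bodies and between genes is the default state of most of the mammalian genome. During reprogramming, fibroblast-specific silencing has to be removed from pluripotency genes and enhancers, and germline genes, whose CpG-rich promoters are methylated in somatic cells, lose part of that methylation in naive pluripotent cells. SSEA1 appears on part of the cells in a reprogramming culture before the culture is fully pluripotent, so cells sorted on it are reprogramming intermediates.

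Total CpG reads were 8042155 to 60276866 in the male iPSC libraries, 17312218 in the SSEA1 positive library, 18064208 in the SSEA1 negative library and 11337174 and 25835728 in MEF 4 and 5. Reads on Y made up 0.0793% to 0.0906% of autosomal reads in male iPSCs, 0.101% and 0.109% in the SSEA1 positive and negative libraries, 0.0913% in MEF 4 and 0.0219% in MEF 5. Female iPSCs had 0.0397% to 0.0468% in the XO libraries and 0.0464% and 0.0485% in the XaXa libraries. The library labelled male MEF 5 lay below these too and therefore went against its label. Where MEF levels matter both MEF libraries are given. The sorted libraries differed from each other by a median of 2.62 points over 19296 tiles that these 7 libraries covered with 50 or more reads. The 3 iPSC pairs differed by 2.22 to 2.45 points, the MEF pair by 3.22 points, and iPSC libraries differed from sorted libraries by 5.73 to 6.75 points. A methylation level below is the percent of reads that were methylated, summed over the CpGs of a 1 kb tile, and 100823 autosomal tiles had at least 3 CpGs and 10 reads in each of the 5 libraries. A level mixes all cells of a library, so fewer methylated cells and less methylation per cell cannot be told apart.

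Male iPSCs were less methylated than the sorted cells. The mean tile level was 51.1%, 54.7% and 54.5% in male iPSC 1, 2 and 4, against 59.6% in SSEA1 positive and 60.4% in SSEA1 negative cells. MEF 4 and 5 stood at 60.6% and 62.1%. All 3 iPSC libraries lay below both sorted libraries, which in turn lay below both MEF libraries. The difference was -6.52 points, from a mean of 53.5% ± 2.01 (SD, n = 3) in male iPSCs. The exact two-sided permutation p was 0.1, the smallest that the 10 splits of 5 libraries allow.

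The difference varied with the level in MEFs, which took no part in the comparison. In the 37012 tiles above 80% in MEFs, male iPSC 1, 2 and 4 averaged 68.2%, 72.0% and 73.2%, against 84.4% in SSEA1 positive and 85.2% in SSEA1 negative cells. The groups did not overlap, and the difference was -13.6 points (exact permutation p = 0.1). In the 34074 tiles at 20% to 80% in MEFs the difference was -3.01 points, with 56.2% to 61.0% in male iPSCs against 61.3% and 62.5% in sorted cells (exact permutation p = 0.2). In the 19225 tiles below 20% in MEFs it was 0.820 points, with 5.07% to 5.82% in male iPSCs against 4.40% and 4.68% in sorted cells (exact permutation p = 0.1).

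Tile by tile, most of the difference was loss of methylation. Against SSEA1 positive cells, 14110 tiles were lower in male iPSCs (14%) and 5220 were higher (5.18%), at an adjusted p under 0.05 in a quasi-binomial test and a difference of at least 10 points. Against SSEA1 negative cells, 14739 tiles were lower (14.6%) and 4744 higher (4.71%). In 10795 tiles (10.7%) male iPSCs were lower than both sorted libraries and in 2957 tiles (2.93%) they were higher than both. These tiles, in which male iPSCs differed from both sorted populations, are called late below, with late loss for lower and late gain for higher. The call does not use MEFs, so male iPSCs at a late tile need not differ from fibroblasts. Both comparisons use the same iPSC libraries. A sorted library has no replicate, so it was assumed to vary like the iPSC libraries. Leaving out male iPSC 4, the deepest library, raised the count of late lower tiles to 16699, and leaving out male iPSC 1 raised that of late higher tiles to 4779.

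No tile passed the same test between SSEA1 positive and SSEA1 negative cells (0%), while 4247 tiles had an unadjusted p under 0.05. With limma on log2 ratios of methylated to unmethylated reads, 147 tiles were lower and 115 higher in SSEA1 positive cells. Without male iPSC 1, 2 or 4 in the estimate of the spread, the quasi-binomial test called 85, 4 or 248 tiles lower and 42, 4 or 120 higher.

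Late lower tiles were strongly methylated in sorted cells. Their median level was 22.9%, 24.5% and 28.0% in male iPSC 1, 2 and 4, against 82.5% in SSEA1 positive and 83.3% in SSEA1 negative cells. In MEF 4 and 5 it was 80.3% and 82.0%. The median difference of a late lower tile was -49.0 points, and in 5178 tiles (48.0%) it was 50 points or more. Late higher tiles had medians of 75.9%, 81.0% and 78.1% in male iPSC 1, 2 and 4, against 26.8% and 28.9% in SSEA1 positive and negative cells, with 41.9% and 45.5% in MEF 4 and 5. These levels describe the tiles that the same iPSC and sorted libraries selected.

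**Figure D1:**
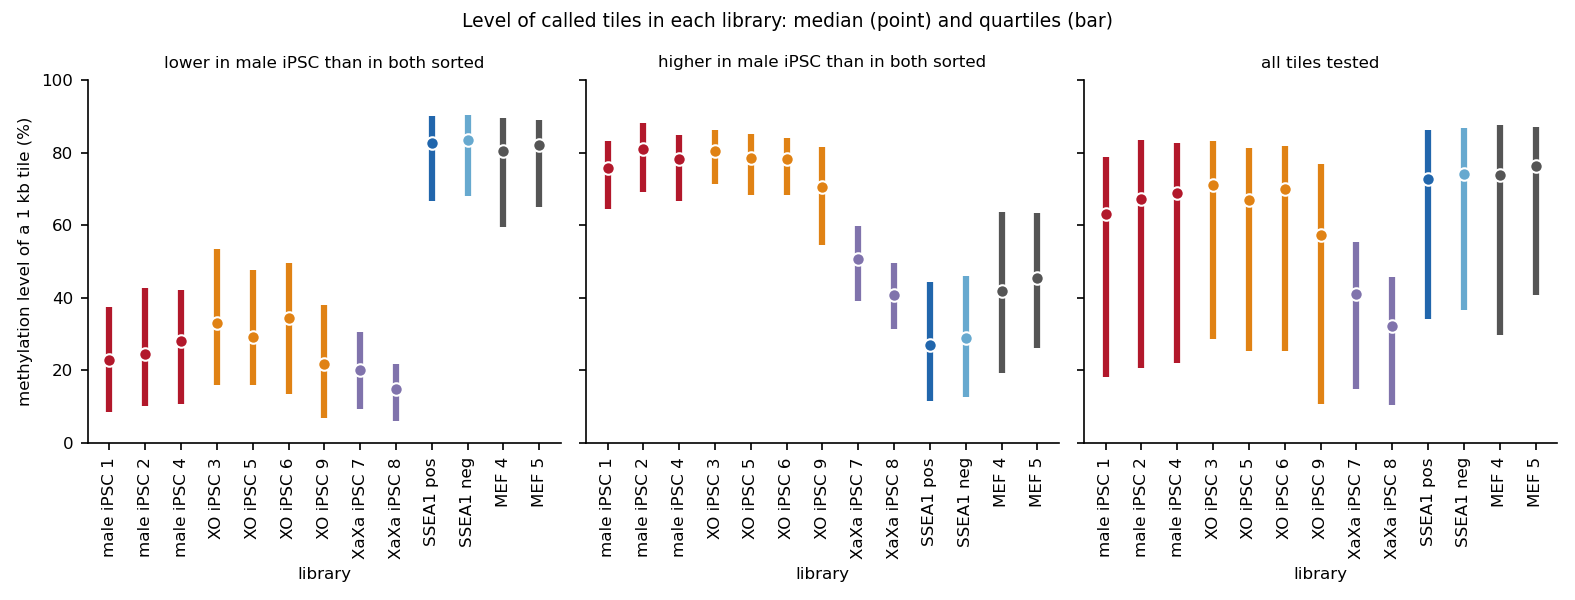
Median methylation level (%) with quartiles of late lower tiles (left, 10795 tiles), late higher tiles (middle, 2957 tiles) and all tested tiles (right, 100823 tiles) in each library, counting tiles with at least 10 reads there. In the left panel the XO libraries, which took no part in the calls, have medians of 21.6% to 34.3%, near male iPSCs, while the sorted libraries lie beside the MEF libraries.

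Female iPSCs, which the calls did not use, mostly differed from sorted cells in the same direction at late tiles. The sorted libraries that made the calls enter this difference as well, so the shares are descriptions. Of the 10795 late lower tiles, 10694 (99.1%) were at least 10 points lower in the mean of the XO libraries than in the mean of the sorted libraries, against 33.3% of all tested tiles. Of the 2957 late higher tiles, 2936 (99.3%) were at least 10 points higher in XO iPSCs, against 16.8% of all tiles. In XaXa iPSCs, whose median level over all tiles was 36.8%, 1762 of 2931 late higher tiles (60.1%) were at least 10 points higher than in sorted cells and 177 (6.04%) at least 10 points lower, against 3.08% and 72.2% of all tiles. Of 10748 late lower tiles 99.9% were at least 10 points lower in XaXa iPSCs, against the same 72.2%.

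How much of the way from fibroblast to iPSC the sorted cells had covered was read in tiles that none of the compared libraries had chosen. These were tiles in which XO iPSC 3, 5 and 6 differed from MEF 5 by at least 40 points, and the level was then read in male iPSCs, the sorted cells and MEF 4. In the 5233 tiles that lost methylation, the mean level was 21.1%, 23.1% and 25.5% in male iPSC 1, 2 and 4, against 77.6% in SSEA1 positive and 78.8% in SSEA1 negative cells, with 77.1% in MEF 4. The sorted cells thus lay at the MEF level, with -0.863% of the change present in SSEA1 positive and -3.10% in SSEA1 negative cells, where 100% would be the mean of male iPSCs. Both sorted libraries were nearer to MEF 4 than to male iPSCs in 4951 of these tiles (94.6%) and nearer to male iPSCs in 75 (1.43%). In the 1059 tiles that gained methylation, the mean was 68.3%, 73.8% and 69.4% in male iPSC 1, 2 and 4, against 25.6% and 26.2% in SSEA1 positive and negative cells and 25.9% in MEF 4. Here -0.740% and 0.674% of the change was present, and both sorted libraries were nearer to MEF 4 in 861 tiles (81.3%).

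**Figure D2:**
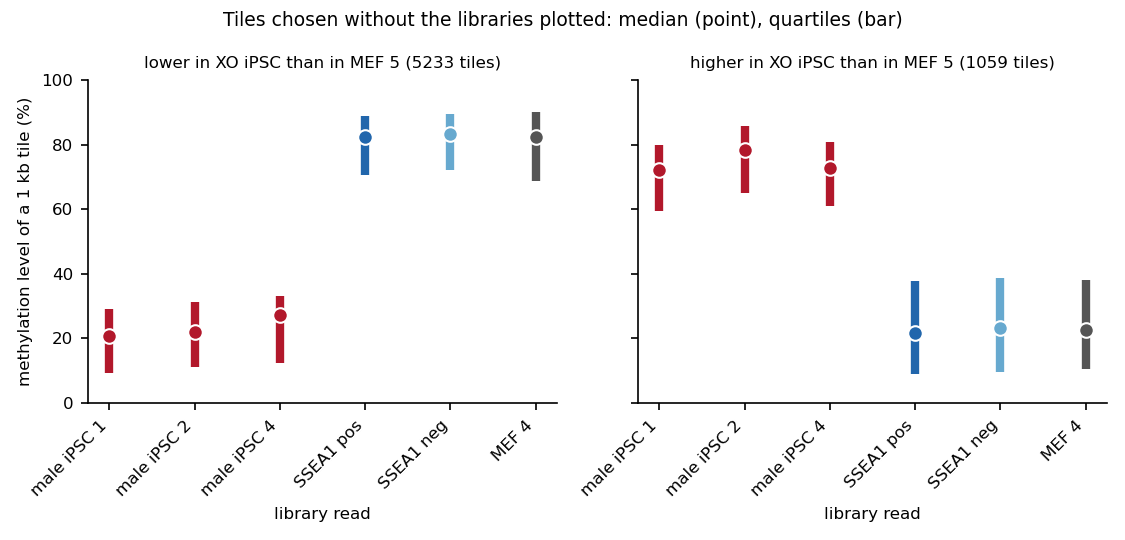
Median methylation level (%) with quartiles, in male iPSC, SSEA1 positive, SSEA1 negative and MEF 4 libraries, of tiles at least 40 points lower (left, 5233 tiles) or higher (right, 1059 tiles) in XO iPSCs than in MEF 5. In both panels the sorted libraries stand at the level of MEF 4, with medians of 82.4% and 83.3% on the left and 21.8% and 23.3% on the right, and male iPSCs stand apart.

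With the MEF libraries exchanged, so that MEF 4 chose the tiles and MEF 5 was read, 2.98% and 1.07% of the loss was present in SSEA1 positive and negative cells over 3577 tiles. For the gain the shares were -10.8% and -7.46% over 1303 tiles, with means of 34.8% and 35.8% in SSEA1 positive and negative cells and 38.2% in MEF 5. The loss was missing in the densest tiles too. In the 681 tiles with 40 or more CpGs, the means were 25.1% in male iPSCs, 80.6% and 81.4% in SSEA1 positive and negative cells and 79.3% in MEF 4.

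At part of the late higher tiles the sorted cells lay below the fibroblasts as well as below iPSCs. To keep the choice apart from the value, tiles called higher against SSEA1 negative cells were read in SSEA1 positive cells. In these 4387 tiles the SSEA1 positive median was 40%, below medians of 49.0% and 52.7% in MEF 4 and 5, and 2503 tiles (57.1%) were below both MEF libraries, against 38.1% of all tiles. Tiles called higher against SSEA1 positive cells gave 53.5% when read in SSEA1 negative cells, against 35.0% of all tiles. For the 13767 tiles called lower against SSEA1 negative cells, the SSEA1 positive median was 80.2%, against 79.6% and 81.6% in MEF 4 and 5. Of these, 34.2% were above both MEF libraries and 34.0% below both, against 27.0% and 38.1% of all tiles. Tiles called lower against SSEA1 positive cells, read in SSEA1 negative cells, gave 37.4% and 29.4%, against 28.2% and 35.0% of all tiles. A shift beyond the MEFs was therefore not particular to late gain. These differences from MEFs were not tested.

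Late loss took different shares of tiles by CpG density. It made up 7.39% of tiles with 3 to 9 CpGs, 13.1% of those with 10 to 19, 17.6% of those with 20 to 39 and 10.8% of those with 40 or more. Late gain made up a smaller share with each step in density, with 3.86%, 3.19%, 1.03% and 0.230% in the same classes. In tiles with 20 to 39 CpGs, male iPSC 1, 2 and 4 averaged 27.9%, 28.8% and 30.8%, against 42.6% in SSEA1 positive and 43.3% in SSEA1 negative cells, a difference of -13.8 points without overlap (exact permutation p = 0.1). The median read number of late lower tiles was 106, 44 and 351 in male iPSC 1, 2 and 4, against 91, 38 and 243 over all tiles. At late higher tiles it was 95, 38 and 221. In SSEA1 positive and negative cells it was 88 and 90 at late lower and 87 and 91 at late higher tiles, against 62 and 65 over all tiles. The part of read number in the calls was not tested.

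**Figure D3:**
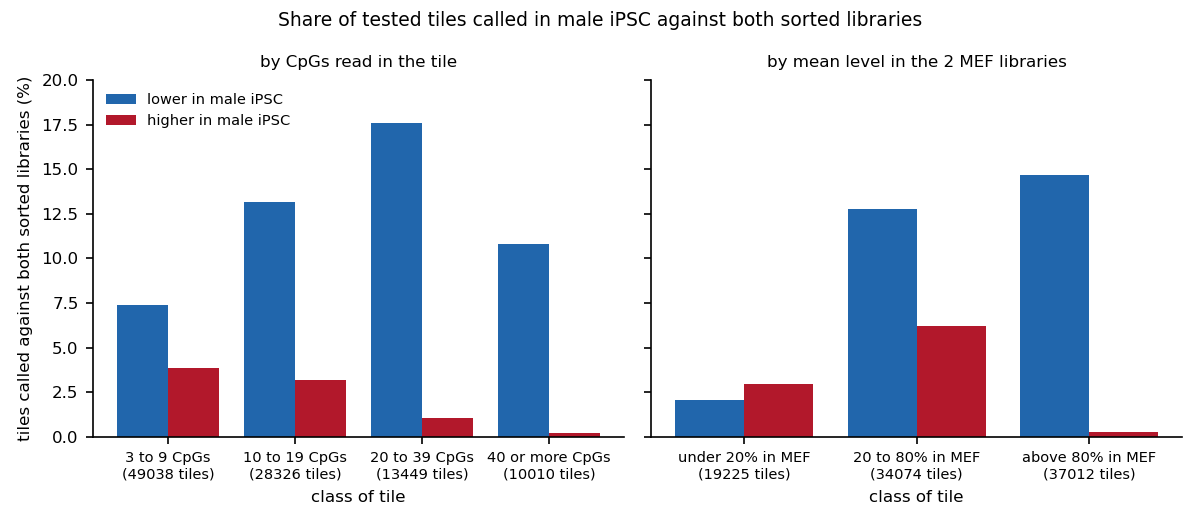
Percent of tested tiles called lower (blue) or higher (red) in male iPSCs than in both sorted libraries, by the number of CpGs read in the tile (left) and by the mean level in the 2 MEF libraries (right). Loss peaks at 17.6% in tiles with 20 to 39 CpGs and at 14.7% in tiles above 80% in MEFs, and gain peaks at 6.20% in tiles at 20% to 80% in MEFs.

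Late tiles lay near each other. Of late lower tiles with another tested tile within 10 kb, 48.5% had a late lower neighbour there, against 21.2% of the other tiles. For late higher tiles the shares were 18.5% and 4.84%. All 19 autosomes took part, with 8.70% (chromosome 13) to 12.4% (chromosome 11) of tiles late lower.

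Among the 227 late lower tiles with at least 5 CpGs read 10 times or more in each library, no overlap between the groups, ordinary depth and a place outside chromosome 18, the 10 with the largest differences were strongly methylated in sorted cells and weakly in iPSCs. The first, on chromosome 11 from 24064001 to 24064841 (mm9, 37 CpGs), had 15.3%, 8.75% and 9.31% in male iPSC 1, 2 and 4, against 96.7% in SSEA1 positive and 99.1% in SSEA1 negative cells. The mean difference was -86.8 points (adjusted p = 2.48e-05 and 1e-05 against SSEA1 positive and negative cells). The nearest gene start that could be placed on mm9 was that of Bcl11a, a zinc-finger repressor known from fetal globin silencing, 83.7 kb away. A tile on chromosome 12 from 72419020 to 72419399 had 4.55%, 8.49% and 11.1% in male iPSCs, against 91.6% and 95.7% in SSEA1 positive and negative cells, and lay 8.34 kb downstream of the start of Dact1, a Wnt pathway regulator. A tile on chromosome 7 from 28970203 to 28970992 had 9.27%, 20.8% and 15.2% in male iPSCs, against 94.4% and 88.4% in SSEA1 positive and negative cells, and lay 5.26 kb downstream of the start of the kinase gene Dyrk1b. Over all 10 such tiles the highest iPSC level was 20.8% and the lowest sorted level 77.5%.

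The 10 late higher tiles chosen in the same way, from 47, had iPSC levels of 74.9% to 93.6% and sorted levels of 5% to 39.8%. On chromosome 8 from 123545461 to 123545798 (12 CpGs), levels were 79.4%, 82.3% and 84.2% in male iPSC 1, 2 and 4, against 5% in SSEA1 positive and 13.9% in SSEA1 negative cells and 0% (no methylated read of 30, which allows up to 11.35%) and 16.8% in MEF 4 and 5. The mean difference was 72.5 points (adjusted p = 0.000103 and 9.31e-05 against SSEA1 positive and negative cells). Its nearest placed gene start was that of Fendrr, a long non-coding RNA of lateral mesoderm, 61.4 kb away. A tile on chromosome 10 from 75052568 to 75052732, 16.4 kb downstream of the start of Ggt1, had 75.2%, 88.7% and 88.4% in male iPSCs and 17.8% and 11.7% in SSEA1 positive and negative cells. MEF 4 and 5 had 69.2% and 64.6% there, so the sorted cells lay below both other cell types. None of the 20 tiles held a placed promoter, and whether they lie in exons, introns or between genes was not analysed here.

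**Figure D4:**
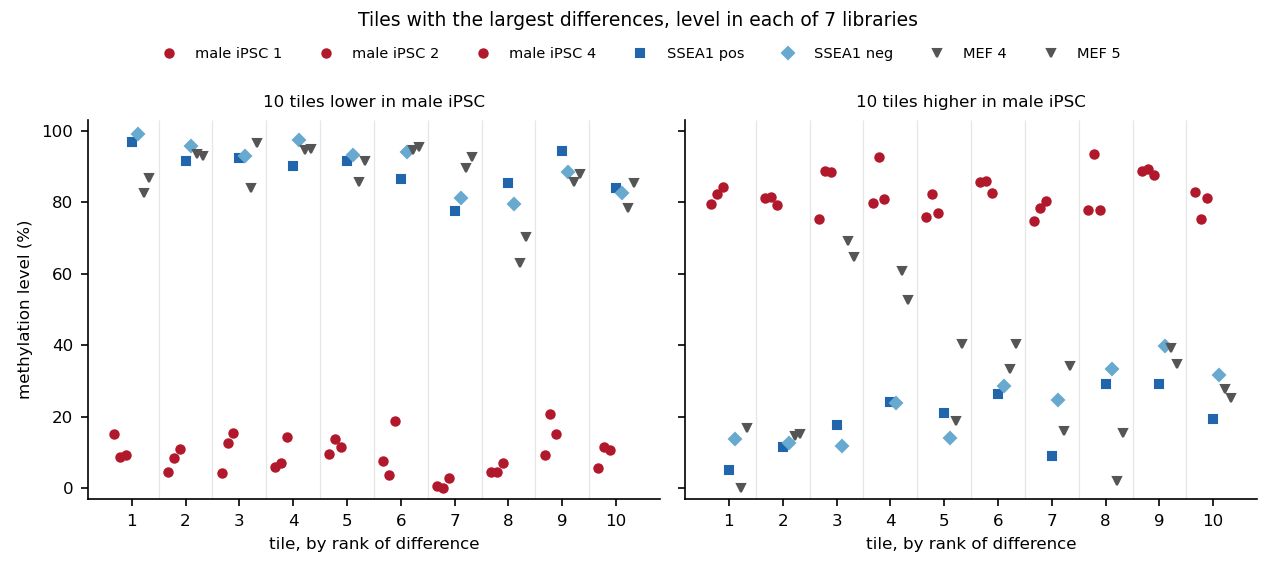
Methylation level (%) in each male iPSC, sorted and MEF library for the 10 late tiles per direction with the largest differences, ordered by rank on the x axis. Male iPSCs (red) reach at most 20.8% on the left and at least 74.9% on the right, and in 2 tiles on the right (ranks 3 and 4) both MEF libraries (grey) lie far above both sorted libraries (blue).

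Late loss reached the promoter tiles of 343 genes. RefSeq promoter sequences were placed on the files' coordinates by their CpG pattern, which gave 8727 genes with a tested tile at their promoter. Of these, 343 (3.93%) were late lower and 78 (0.894%) late higher, against 10.7% and 2.93% of all tiles, and 88.7% of the genes were below 20% in sorted cells to begin with. Among the 551 genes above 50% in sorted cells, 171 (31.0%) were late lower. The sorted level enters both this filter and the call, so the share is a description. A tile can reach beyond the promoter, so the promoter's own CpGs were read as well: 189 of the late lower genes had at least 10 reads there in each library, and 130 of them were lower in male iPSCs by 10 points or more. Of the late higher genes 53 could be read so, and 49 were higher by 10 points or more. The tile was chosen to hold most of a promoter's CpGs and the libraries are the same, so part of this overlap was built in. The share over all genes is not given here, so these counts are descriptions.

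Among pluripotency genes the late change was at Zfp42, also known as Rex1, a zinc-finger gene used as a marker of naive pluripotency. It was the single late gene of 15 tested (6.67%, against 3.93% of all genes). Its tile, on chromosome 8 from 44392349 to 44392927 (mm9, 564 bases before to 14 after the start), had 1.96%, 5.93% and 3.07% in male iPSC 1, 2 and 4. The SSEA1 positive cells had 87.9% (95% Wilson interval 82.0% to 92.0%), the SSEA1 negative cells 76.4% (67.6% to 83.3%), and MEF 4 and 5 had 44.1% and 64.7%. The iPSC libraries lay far below all 4 others, at -78.5 points from the sorted mean (adjusted p = 4.09e-06 and 1.9e-05 against SSEA1 positive and negative cells). The 4 XO libraries had 1.01% to 3.64%. The promoter CpGs of Zfp42 alone could not be compared, because only male iPSC 4 (0%) had at least 10 reads there.

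Of the other 14 pluripotency genes, 13 were below 20% in male iPSCs and in sorted cells alike, near the share of all genes (91.6% in male iPSCs and 88.7% in sorted cells). Sox2 had at most 0.408% in male iPSCs, against 2.13% in SSEA1 positive and 0.629% in SSEA1 negative cells. Tfcp2l1, a factor of naive pluripotency, had at most 1.84%, against 1.99% and 2.56% in SSEA1 positive and negative cells. Nr5a2, a nuclear receptor gene, had at most 3.45% in male iPSCs, against 15.9% in SSEA1 positive and 11.2% in SSEA1 negative cells, which did not pass against SSEA1 negative cells (adjusted p = 0.0703). Esrrb, another nuclear receptor gene, had 69.7%, 90% and 61.7% in male iPSCs at its tile, which ends before its start. SSEA1 positive cells had 30.4% and SSEA1 negative cells 66.7%, so the groups overlapped. It passed as higher against SSEA1 positive cells alone (43.5 points). Over its promoter CpGs male iPSC 1 and 4 had 21.1% and 31.8% and SSEA1 positive cells 20.8%. Male iPSC 2 and SSEA1 negative cells had fewer than 10 reads there. Pou5f1 and Nanog had no tested promoter tile.

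Germline genes held the most late loss of the lists examined. Of 21 tested, 9 were late lower (42.9%, against 3.93% of all genes) and none was late higher. Of the 15 that were above 50% in sorted cells, 9 were late lower (60%, against 31.0% of all genes above 50%). Their median difference was -22.2 points, against 0 over all genes. The 9 were Tex14, D1Pas1, Sycp2, Rpl10l, Hormad2, H2bc1, Mael, Dazl and Slc25a31. The list was chosen with earlier results of these data known, so its share is a description. The sorted level also enters both the 50% filter and the call, so the share above 50% is a description too. On CpGs read at least 10 times in each library 2 of the 21 could be tested and 1 was late lower.

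The largest germline difference was at Tex14, needed for the intercellular bridges of germ cells, whose start shares its tile with that of Rad51c, a DNA repair gene that somatic cells also use. The tile, on chromosome 11 from 87218222 to 87218956, had 4.62%, 3% and 7.41% in male iPSC 1, 2 and 4, against 83.2% (77.1% to 88.0%) in SSEA1 positive and 82.8% (77.5% to 87.0%) in SSEA1 negative cells. The difference was -78.0 points (adjusted p = 1e-05 and 3.53e-06). Over the promoter CpGs of Tex14 alone it was -57.1 points.

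Meiotic and germ cell regulators lay at intermediate levels in iPSCs. Sycp2, a component of the synaptonemal complex (chromosome 2, 178142110 to 178142354), had 30.5%, 11.4% and 17.7% in male iPSCs, against 87.2% and 87.9% in SSEA1 positive and negative cells (adjusted p = 0.000119 and 8.6e-05). Mael, which acts in transposon silencing in the germline (chromosome 1, 168168222 to 168168991), had 23.7%, 25.1% and 35.2%, against 77.9% and 69.3% in SSEA1 positive and negative cells (adjusted p = 0.00126 and 0.0161). Dazl, an RNA-binding germ cell regulator (chromosome 17, 50432067 to 50432978), had 27.6%, 19.9% and 32.8%, against 69.0% and 70.4% in SSEA1 positive and negative cells (adjusted p = 0.00282 and 0.00166). At these tiles no iPSC library reached the range of the sorted libraries. The groups did not overlap at 99.8% of late lower tiles, nor at 53.4% of all tested tiles in either direction. Over the promoter CpGs of Sycp2 alone the difference was -35.7 points. There male iPSC 1, 2 and 4 had 80%, 27.8% and 35.1%, against 66.7% and 100% in SSEA1 positive and negative cells, so the groups overlapped. Over those of Dazl, male iPSC 1 and 4 had 25% and 50% and both sorted libraries 100%, while male iPSC 2 had fewer than 10 reads. Hormad2, a meiotic chromosome axis gene, had 15.8%, 18.6% and 22.4%, against 59.4% in SSEA1 positive and 85.7% in SSEA1 negative cells, the last from 14 reads (60.1% to 95.99%), and it lost its call without male iPSC 2 (adjusted p = 0.0627). H2bc1, a testis-specific histone H2B gene, had 28.8%, 44.7% and 35.0%, against 83.3% and 95.5% in SSEA1 positive and negative cells.

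The other late lower germline genes were D1Pas1, Rpl10l and Slc25a31. D1Pas1, an intronless DEAD-box helicase gene of the testis (chromosome 1, 188791013 to 188791976), had 12.9%, 12.9% and 30.4% in male iPSC 1, 2 and 4, against 91.1% and 92.8% in SSEA1 positive and negative cells (adjusted p = 7.79e-05 and 1.77e-05). Rpl10l, an intronless testis copy of the X-linked ribosomal gene Rpl10 (chromosome 12, 67385005 to 67385481), had 25.3%, 26.7% and 39.5%, against 94.9% and 97.0% (adjusted p = 0.00027 and 0.000102 against SSEA1 positive and negative cells). Slc25a31, the testis ADP/ATP carrier (chromosome 3, 40512497 to 40512997), had 48.0%, 43.1% and 45.9%, against 93.4% and 81.0% (adjusted p = 0.0052 and 0.00163). All 3 stayed above 80% in both sorted libraries, and Slc25a31 remained the most methylated of the 9 in iPSCs.

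Germline genes that were not late fell into further patterns. Ddx4, a germ cell RNA helicase, had 23.4%, 26.7% and 28.1% in male iPSCs, against 46.8% in SSEA1 positive and 76.3% in SSEA1 negative cells, and passed against SSEA1 negative cells alone (adjusted p = 0.15 and 0.00049 against SSEA1 positive and negative cells). Hormad1 (62.7% in the mean of male iPSCs, against 77.0% in SSEA1 positive and 92.7% in SSEA1 negative cells) and Syce2 (1.78% against 8.33% and 29.6%) did the same. Smc1b passed against SSEA1 positive cells alone, with 17.5%, 26.2% and 20.7% in male iPSCs, against 37.3% and 36.4% in SSEA1 positive and negative cells. Tdrd1 had 81.8%, 26.3% and 46.2%, against 26.5% and 64.3%, so its groups overlapped. The test between SSEA1 positive and SSEA1 negative cells called none of these tiles, so a difference between the gates there is not shown. Fkbp6, Tex101 and Tuba3b were above 60% and Tdrd5, Tdrd7 and Prdm9 below 6% in each male iPSC, sorted and MEF library.

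**Figure D5:**
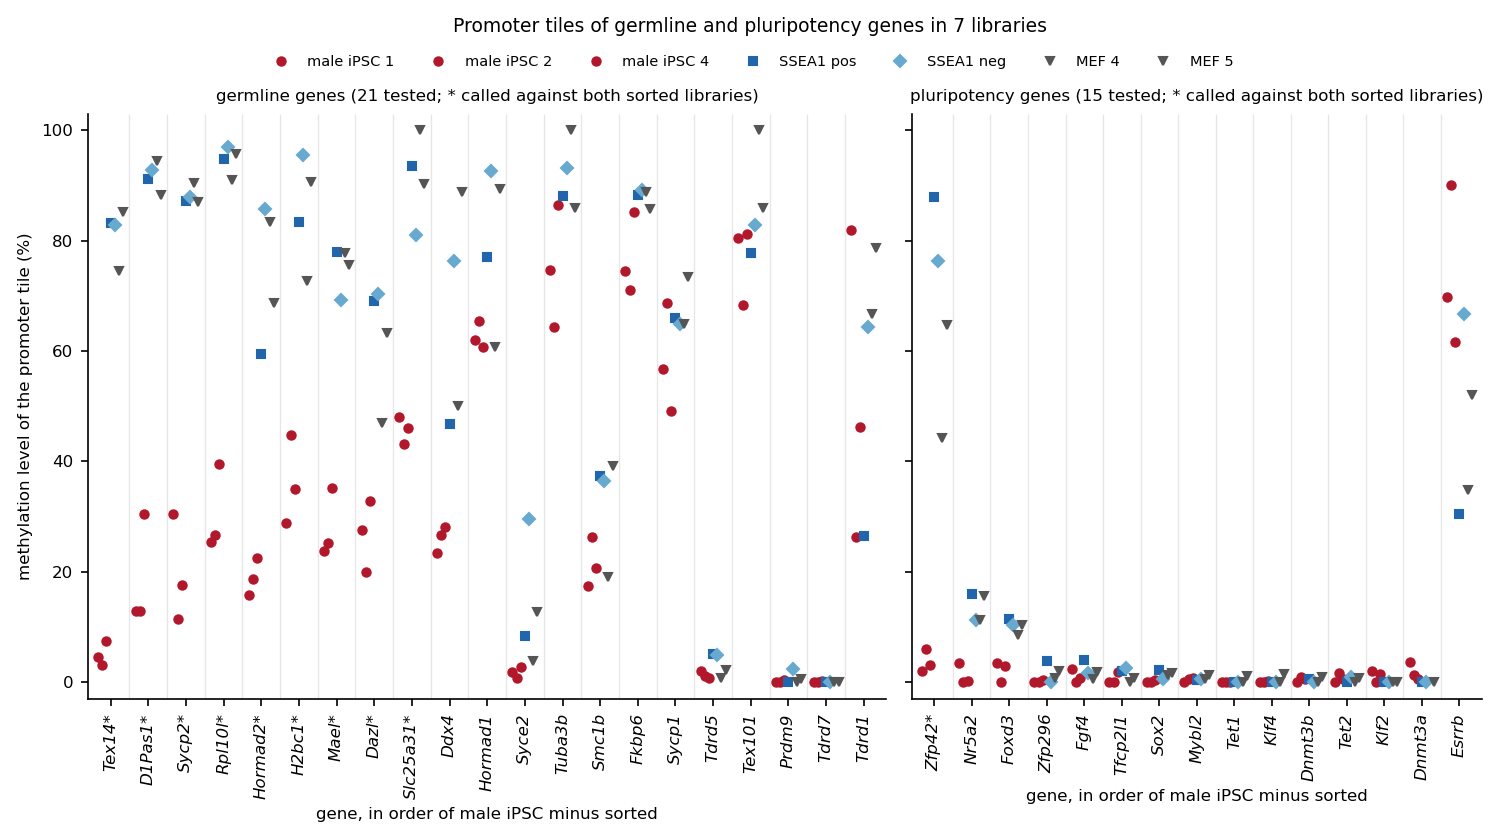
Methylation level (%) of the promoter tile of 21 germline genes (left) and 15 pluripotency genes (right) in each male iPSC, sorted and MEF library, ordered by male iPSC minus sorted. Male iPSCs (red) lie below both sorted libraries (blue) in the 9 starred germline genes and in Zfp42, and 13 pluripotency genes lie below 20% in iPSC and sorted libraries alike.

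The sequences before the starts of Zfp42 and of 4 late lower germline genes show where the CpGs behind these levels lie. They are the 250 bases before the start, 5′ to 3′ on the gene's strand, from RefSeq (GRCm38.p6, a different build from the files), and capitals mark CpGs read in at least 1 of the 5 libraries. Zfp42 is at chr8:43307010-43307259 (minus strand), D1Pas1 at chr1:186967166-186967415 (plus), Rpl10l at chr12:66284402-66284651 (minus), Mael at chr1:166238745-166238994 (minus) and Slc25a31 at chr3:40708621-40708870 (plus).
Zfp42: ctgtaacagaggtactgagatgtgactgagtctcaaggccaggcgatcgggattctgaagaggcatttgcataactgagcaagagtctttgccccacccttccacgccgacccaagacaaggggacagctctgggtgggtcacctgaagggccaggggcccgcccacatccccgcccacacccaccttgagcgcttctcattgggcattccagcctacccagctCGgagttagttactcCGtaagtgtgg
D1Pas1: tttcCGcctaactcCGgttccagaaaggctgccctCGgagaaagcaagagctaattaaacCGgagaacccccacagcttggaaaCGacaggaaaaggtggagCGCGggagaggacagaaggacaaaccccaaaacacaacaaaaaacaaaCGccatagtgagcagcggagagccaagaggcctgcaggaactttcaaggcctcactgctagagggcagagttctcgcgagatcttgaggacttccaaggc
Rpl10l: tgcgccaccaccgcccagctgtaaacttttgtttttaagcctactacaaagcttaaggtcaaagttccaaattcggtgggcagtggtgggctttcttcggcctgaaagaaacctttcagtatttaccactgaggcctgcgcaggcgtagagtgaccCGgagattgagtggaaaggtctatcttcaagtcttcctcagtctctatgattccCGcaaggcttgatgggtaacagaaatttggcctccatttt
Mael: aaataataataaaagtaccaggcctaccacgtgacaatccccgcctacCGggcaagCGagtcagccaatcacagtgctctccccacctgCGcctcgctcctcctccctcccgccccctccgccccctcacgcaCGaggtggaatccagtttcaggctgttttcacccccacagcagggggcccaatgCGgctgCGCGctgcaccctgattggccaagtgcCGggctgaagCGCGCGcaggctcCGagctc
Slc25a31: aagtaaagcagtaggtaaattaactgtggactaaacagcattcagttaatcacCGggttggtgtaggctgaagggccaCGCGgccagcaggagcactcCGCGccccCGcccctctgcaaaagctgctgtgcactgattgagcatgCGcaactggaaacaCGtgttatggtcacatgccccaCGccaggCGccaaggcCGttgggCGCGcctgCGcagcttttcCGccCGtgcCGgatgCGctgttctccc

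Of these CpGs, 2 of 9 were read at Zfp42, 8 of 11 at D1Pas1, 2 of 8 at Rpl10l, 12 of 18 at Mael and 18 of 18 at Slc25a31, and the rest of each tile lies around this stretch. The hexamer CACGTG, the same on both strands, stood once in the windows of Mael and Slc25a31 and in no other of the 5. Over the 250 bases it was found in 2 of the 9 late lower germline genes (22.2%), in 6 of the other 12 tested germline genes (50%) and in 8.80% of the 8727 genes with a tested promoter tile (6.02% of all 31396 autosomal promoter sequences). GCGGGA on either strand stood in D1Pas1, Rpl10l and Mael, in 4 of the 9 (44.4%), in 7 of the other 12 (58.3%), in 34.5% of the genes with a tested promoter tile and in 17.1% of all sequences. A motif match says only that these letters are present.

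Most fibroblast genes, Hox genes and lineage regulators were below 20% in male iPSCs and in sorted cells, as were most genes: over all genes, 91.6% were below 20% in male iPSCs and 88.7% in sorted cells. None of 11 fibroblast and mesenchymal genes was late in either direction, and all 11 were below 20% in male iPSCs and in sorted cells. Levels below 20% are group means in this paragraph: male iPSC 2 alone had 25% at Fbln2 and 22.5% at Thbs2. Against SSEA1 positive cells alone, Thbs2 passed as higher (14.9 points) and Snai1 as lower (-10.1 points). None of 15 Hox genes was late, and 11 of them were below 20% in both groups. Over all tested tiles, 53.4% had no overlap between the groups in either direction. Hoxa7 had 8.33%, 25% and 21.3% in male iPSCs, against 42.4% in SSEA1 positive and 55.4% in SSEA1 negative cells, without overlap. It passed against SSEA1 negative cells alone (adjusted p = 0.129 and 0.0187 against SSEA1 positive and negative cells). So did Hoxd9, at -18.8 points (adjusted p = 0.119 and 0.0295). Hoxa6, at -13.2 points, passed against neither. Hoxd12 went the other way, with 30.5%, 45.7% and 25.1% in male iPSCs. SSEA1 positive and negative cells had 11.3% and 15.6% there, without overlap, and it passed against neither (adjusted p = 0.117 and 0.431). Of 23 other lineage regulators, 22 were below 20% in both groups. The exception was Tbx1, a T-box gene of the pharyngeal arches (chromosome 16, 18588006 to 18588986). It had 1.56%, 2.47% and 3.67% in male iPSCs, against 71.8% in SSEA1 positive and 47.8% in SSEA1 negative cells, with 59.2% and 47.3% in MEF 4 and 5. The difference was -57.2 points (adjusted p = 2e-05 and 7.31e-05), and it was the single late lower gene of its list (4.35%, near the 3.93% of all genes).

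Among 15 imprinted genes 1 was late lower (6.67%, against 3.93% of all genes) and 1 late higher (0.894% of all genes). The late higher gene was Plagl1, a zinc-finger growth regulator expressed from the paternal allele, whose tile on chromosome 10 from 12810393 to 12810994 also holds the start of its non-coding partner Hymai. It had 61.5%, 73.3% and 56.9% in male iPSC 1, 2 and 4, against 1.05% in SSEA1 positive cells (0.186% to 5.72%) and 0% of 47 reads in SSEA1 negative cells (up to 7.56%). XO iPSC 3, 5, 6 and 9 had 77.9%, 34.8%, 41.9% and 21.4%. MEF 4 had 0% (no methylated read of 29, which allows up to 11.7%) and MEF 5 had 42.3% (22 of 52 reads, 29.9% to 55.8%). Both MEF levels were below every male iPSC library. The MEF 5 interval overlapped those of male iPSC 1 (50.4% to 71.6%), 2 (55.6% to 85.8%) and 4 (51.5% to 62.2%), so a gain over MEF 5 is not shown. The difference was 63.4 points (adjusted p = 0.000211 and 0.0014). The late lower gene was Ascl2, a trophoblast transcription factor, with 3.33%, 2.83% and 2.61% in male iPSCs, against 23.0% and 33.6% in SSEA1 positive and negative cells, but over its own promoter CpGs the difference was 0.798 points. Igf2r, which encodes a receptor for IGF2, had 5.42%, 4.23% and 6.10%, against 20.2% and 33.4% in SSEA1 positive and negative cells, and passed against SSEA1 negative cells alone (adjusted p = 0.106 and 0.00034).

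The promoter tiles with the largest late loss of any gene were mostly at genes known by a clone or model name. 4930455C13Rik (chromosome 10, 21061616 to 21061833) had 1.69%, 4.35% and 3.76% in male iPSCs, against 95.3% in SSEA1 positive and 92.5% in SSEA1 negative cells, a difference of -90.6 points (adjusted p = 3.73e-05 and 2.18e-05). Gm35125 had 8%, 6.25% and 4.02%, against 100% and 93.8% (adjusted p = 1.93e-05 and 0.000109). 1700110K17Rik had 5.38%, 4.55% and 5.18%, against 85.0% and 83.7%. Fignl2, a gene of the fidgetin ATPase family, had 12.8%, 11.4% and 14.3%, against 96.2% in SSEA1 positive and 88.4% in SSEA1 negative cells, while MEF 4 and 5 had 52.8% and 61.3%. Over its promoter CpGs alone Fignl2 had 30.4%, 31.6% and 55.8% in male iPSCs, against 80% and 84.6% in SSEA1 positive and negative cells, a difference of -43.0 points. Gm52569, 0610005C13Rik, Gm1070, Fam83e and Mgat4e, a member of a glycosyltransferase family, completed the list beside Tex14, with differences of -75.1 to -83.3 points. Promoter CpGs alone could not be compared at 4930455C13Rik, Gm35125, 1700110K17Rik, Fam83e and Mgat4e, with fewer than 10 reads in at least 1 library. The tile of 4930455C13Rik lay wholly after its start. Some tiles held few reads: 14 and 12 at Fam83e in male iPSC 1 and 2, and 16 at Gm35125 and 11 at Mgat4e in male iPSC 2.

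The largest late gains at promoters included Cavin4, Enpep, Aox4 and Abcc9. Cavin4, a muscle caveolae gene (chromosome 4, 48676297 to 48676844), had 85.6%, 89.2% and 87.7% in male iPSC 1, 2 and 4, against 10.9% in SSEA1 positive and 29.3% in SSEA1 negative cells (67.4 points, adjusted p = 8.45e-06 and 3.88e-05). Enpep, a membrane aminopeptidase gene (chromosome 3, 129035035 to 129035893), had 79.2%, 73.1% and 77.2%, against 12.0% and 12.8% in SSEA1 positive and negative cells (64.1 points, adjusted p = 6.54e-05 and 6.52e-05), over a tile that holds 1 read CpG of its promoter window. Aox4, an aldehyde oxidase gene, had 65.5%, 72.0% and 69.1%, against 0% (no methylated read of 31, which allows up to 11.03%) and 7% in SSEA1 positive and negative cells. Abcc9, a subunit gene of ATP-sensitive potassium channels, had 59.5%, 81.8% and 42.8%, against 2.22% and 1.54% in SSEA1 positive and negative cells, and its iPSC libraries spread widely (SD 19.6 points). AA387883, Gm33197, Dpep1, Frem1 and Gm52526 were the others beside Plagl1, with 60.8 to 73.4 points. MEF 4 and 5 had 15.3% and 52.3% at Cavin4, 26.8% and 24.5% at Enpep, 10.8% and 37.2% at Aox4 and 5.56% and 1.91% at Abcc9. At Gm33197 they had 40.4% and 64.8%, and male iPSC 4 had 64.7%. Dpep1 lost its call without male iPSC 2 (adjusted p = 0.0529).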

How the data were processed

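Per the file headers, the deposited tables list total and methylated read counts per CpG without normalisation; the deposited fraction, their quotient, was set aside. The submitters' processing notes name BSMAP and the mm9 build, and the sources used here give no further steps. Coordinates are mm9 as deposited, counted from 1, except where GRCm38.p6 is named.

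Counts were summed over autosomal 1 kb tiles with at least 3 CpGs and 10 reads in each of the 5 libraries. A quasi-binomial model had 1 mean each for male iPSC, SSEA1 positive and SSEA1 negative cells. The dispersion came from the 3 iPSC libraries (2 residual degrees of freedom), was moderated with a depth trend (squeezeVar in limma 3.58.1, R 4.3.3) and kept at 1 or above, and F tests were adjusted by the Benjamini-Hochberg method over 100823 tiles. The prior was estimated on the 84500 tiles with at least 5 methylated and 5 unmethylated reads on average over the 3 iPSC libraries. This restriction and the trend were not in the planned design: the restriction was adopted after first counts had been seen, because the test with a prior from all tiles did not recover changed tiles in simulated data. Both were also run as alternatives, and results with the prior from all tiles are given below. Without the depth trend 94.0% of late lower and 90.2% of late higher tiles kept their calls. The members and gene lists were chosen with earlier results of these data known.

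Promoters (RefSeq, 250 bases before to 50 after the start) were placed by matching CpG positions and their sequence context, with a shift shared by a neighbouring gene. Of 13578 unique full matches, 13513 (99.5%) shared a shift, giving 11733 genes. A gene takes the tile with most of its promoter CpGs. Named tiles and promoters were the 10 per direction with the largest smaller difference, not on chromosome 18; tiles needed at least 5 CpGs with 10 reads in each library, no overlap and ordinary depth, and promoters that share a tile count once. Values are given for up to 6 genes a list with the largest differences. Mael, Dazl, Slc25a31, Ddx4, Hormad1, Syce2, Smc1b, Tdrd1, Sox2, Tfcp2l1, Prdm9, Fkbp6, Tex101, Tuba3b, Tdrd5 and Tdrd7 were added after their values had been seen.

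Median reads per tile were 38 to 243 in iPSC libraries, 62 in SSEA1 positive and 65 in SSEA1 negative cells. RRBS reads carry no molecular identifiers and a read spanning several CpGs counts at each, so the 95% Wilson intervals cover counting error only and are too narrow. Alternatives were other read minimums, common CpGs, 25 points, limma, capped reads, a fit over 7 libraries and 1 mean for both sorted libraries. Further ones were promoter CpGs alone, leaving out libraries, a prior from all tiles and a fit without the depth trend. Calculations used Python 3.11.15, numpy 2.4.6 and pandas 2.3.3.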

Additional observations from a re-analysis of the deposited data

How the results depend on the processing

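No paired analysis was possible because the male iPSC libraries carry the numbers 1, 2 and 4 and both sorted libraries the number 2, so the groups share a single number. No late tile took the opposite call under an alternative fitted with separate means for the sorted libraries. Counts of tiles lower and higher against SSEA1 positive, SSEA1 negative and both sorted libraries were 8157, 2707, 8707, 2554, 6709 and 1695 with at least 30 reads, where 51717 tiles could be tested. With CpGs read at least 10 times in each library they were 1066, 332, 1212, 327, 877 and 223 of 9133 testable tiles, and 46 genes were late lower and 11 late higher; of those 877 tiles, 843 (96.1%) were also late lower with all CpGs. With the dispersion prior from all tiles, an alternative added after seeing the data, they were 9072, 3011, 9496, 2737, 6930 and 1728, with 49 late higher genes. With 1 mean for both sorted libraries, 21669 tiles were lower and 8457 higher. At 25 points 217 genes were late lower. Leaving out iPSC libraries gave 13382 to 21496, 4411 to 8141, 13978 to 22385, 3975 to 7380, 10221 to 16699 and 2450 to 4779 tiles, and 302 to 430 late lower and 70 to 151 late higher genes. Between SSEA1 positive and negative cells it gave 4 to 248 lower and 4 to 120 higher tiles, and limma gave 147 and 115. The mean difference in tiles below 20% in MEFs was 0.406 points on common CpGs (exact permutation p = 0.3) and 0.301 with 30 reads (exact permutation p = 0.5), and that at 20% to 80% was -5.52 on common CpGs (exact permutation p = 0.1). Leaving out each library gave -7.15 to -5.37 points over all tiles. Over promoter CpGs alone, 11 of 23 named promoters kept their difference within the spread of the iPSC libraries, 11 moved by more in the same direction and Ascl2 reversed to 0.798. With the prior from all tiles Mael, Hormad2, Dpep1, Abcc9, Gm33197 and the tile on chromosome 2 at 165071708 lost their calls (adjusted p = 0.0571 to 0.0975). The number of late lower germline genes was 8 to 10 without an iPSC library. With 1 library per gate, differences between the gates below the spread of the iPSC libraries were not detectable. The cause of these shifts was not tested, beyond the smaller number of testable tiles.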
